A study of Mus musculus with 22 samples.

Results

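The inner slabs of a sagittally sliced mouse brain were compared with the outer slabs. In Transcriptome Tomography a whole brain is sectioned along 1 body axis, neighbouring sections are collected together as slabs, and a microarray measures the RNA of each collection, called a fraction. The sagittal series held 6 fractions of the 22 in the study, all from 1 male C57BL/6J mouse, an inbred laboratory strain with no treatment named in the labels. The sample titles gave the age as 7 days after birth and the age field as 3 days. Fractions 3, 4 and 5, which are slabs 4, 5 and 6 of 9, were taken as medial. Fraction 1 (slabs 1 and 2), fraction 2 (slab 3) and fraction 6 (slabs 7 to 9) were taken as lateral. The sides are defined by slab position. The labels did not say which side of the brain fraction 1 came from. The 6 fractions are different pieces of 1 brain, so every SD, SE and p below measures the spread between pieces and not between animals. In pooled tissue, fewer cells of a type and less RNA per cell cannot be told apart.

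A sagittal cut separates structures by their distance from the midline. The hypothalamus, which makes the peptide hormones of the posterior pituitary, the raphe nuclei with their serotonin neurons, the midbrain dopamine neurons, the habenula and most of the thalamus lie near the midline. The cerebral cortex and hippocampus extend to the sides of the brain, the striatum lies lateral to the septum and ventricles, and the olfactory bulbs are a pair of small lobes close to the midline at the front.

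The promoters of 4 genes are shown because they span the comparison. Oxt, Avp and Pmch encode the hypothalamic peptides oxytocin, vasopressin and melanin-concentrating hormone, all with higher medial means. Emx1 encodes a homeobox factor of the dorsal telencephalon and was lower in every medial fraction. Each line gives the 250 bases before the RefSeq start site, 5′ to 3′ on the gene's strand, in build GRCm38.p6. The windows are chr2:130575919-130576168 on the plus strand for Oxt, chr2:130582589-130582838 on the minus strand for Avp, chr10:88090822-88091071 on the plus strand for Pmch, and chr6:85187681-85187930 on the plus strand for Emx1. Capitals mark TATAAA, its variant CATAAA, and AGGTCA, each searched on both strands.
Oxt: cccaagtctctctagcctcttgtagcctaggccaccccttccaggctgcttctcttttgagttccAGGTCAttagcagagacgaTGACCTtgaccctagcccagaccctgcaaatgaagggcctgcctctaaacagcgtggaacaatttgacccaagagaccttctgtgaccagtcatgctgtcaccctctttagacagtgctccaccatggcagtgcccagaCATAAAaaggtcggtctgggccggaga
Avp: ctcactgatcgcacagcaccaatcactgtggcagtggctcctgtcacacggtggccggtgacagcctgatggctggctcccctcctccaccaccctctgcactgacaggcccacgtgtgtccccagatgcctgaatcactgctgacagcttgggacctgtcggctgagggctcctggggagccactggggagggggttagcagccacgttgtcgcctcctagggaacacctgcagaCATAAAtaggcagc
Pmch: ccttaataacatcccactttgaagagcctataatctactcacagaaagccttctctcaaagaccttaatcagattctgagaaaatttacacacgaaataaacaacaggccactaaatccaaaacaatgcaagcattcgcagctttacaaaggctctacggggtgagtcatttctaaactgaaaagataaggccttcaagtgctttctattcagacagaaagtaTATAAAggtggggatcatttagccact
Emx1: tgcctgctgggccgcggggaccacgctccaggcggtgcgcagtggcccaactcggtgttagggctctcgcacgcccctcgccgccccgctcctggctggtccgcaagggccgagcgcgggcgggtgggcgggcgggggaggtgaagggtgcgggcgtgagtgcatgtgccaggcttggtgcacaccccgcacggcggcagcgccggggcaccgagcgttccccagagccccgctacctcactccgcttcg
The Oxt window held CATAAA from base -27 and AGGTCA in both orientations, from bases -185 and -166. The Avp window held CATAAA from base -14, and the Pmch window TATAAA from base -27. The Emx1 window held none of these letters, and its GC content was 75.6%, against 54% for Oxt, 62.4% for Avp and 38.4% for Pmch. Over the 32851 promoter windows of the table, 12.4% held TATAAA, 10.8% CATAAA and 14% AGGTCA. A match is a description of the letters and not a binding site.

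Each array's processed intensities were put on the log2 scale and its own 75th percentile subtracted, which is called the log2 level here, and the levels of different probes were not set against each other. Of 15850 RefSeq genes whose probe was well above background in at least 2 of 3 fractions of the higher side, 796 were higher in every medial fraction than in every lateral one, which is 5.02% of them. Another 816 genes, 5.15%, were lower in every medial fraction, so that 1612 genes, 10.2%, did not overlap in one direction or the other. The split depended on the scaling, with 642 higher and 1088 lower when each array was centred on its median, and 776 higher and 142 lower without scaling. The median difference was 0.48 on the log2 scale among the first (1.39-fold) and -0.46 among the second, against a median absolute difference of 0.18 over all genes counted. By 1 log2 unit or more, 134 genes were higher (0.845%) and 103 lower (0.65%) without overlap. Complete separation of 3 against 3 has an exact two-sided permutation p of 0.1 at the smallest, so no single gene could be called by that test, and the shares without overlap over all genes are not read as a sign of a difference between the sides. The counts of each gene list over all 6 fractions stand against the same shares, 5.02% higher and 5.15% lower, and with fractions left out the shares over all genes are larger and are given with the counts. Leaving out 1 fraction turned the median of a list or moved it by over 1.5 times in 31 of 34 lists, all but the hypothalamic peptide, hippocampal and olfactory bulb lists, so the lowest and highest median with 1 fraction left out are given with most lists.

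No gene passed limma's moderated test across 15942 genes at an adjusted p of 0.05, in either direction. At an unadjusted p under 0.05 the counts were 372 genes with the medial mean higher (2.33%) and 391 with the lateral mean higher (2.45%). These counts moved with the setting, to 1185 and 604 without fraction 2, 133 and 148 without fraction 4, and 320 and 69 without scaling. With a linear term in slab position added to the model they were 1148 and 1655. The smallest adjusted p was 0.237, for Sp8, and over the 102 genes named by rule the adjusted p ran from 0.237 to 0.994. The text therefore gives levels and whether the fractions overlapped, and calls no single gene changed.

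Of the 5 markers given for the comparison, Dgkk alone did not overlap between the medial and lateral fractions. Hoxb5, Mobp, Tph2 and Avp overlapped, and Avp is described with the hypothalamic peptides. Dgkk, a diacylglycerol kinase, measured -0.999 in fraction 1, 0.75 in fraction 2, 1.57, 1.28 and 0.89 in fractions 3 to 5, and -1.44 in fraction 6, with no overlap. Hoxb5, a hindbrain and spinal cord patterning factor, and Mobp, a myelin protein, were as high in fraction 2 as in the medial fractions and low in fractions 1 and 6. Tph2, the enzyme of serotonin synthesis in neurons, was dim, at -5.18, -5.09 and -4.09 in fractions 1, 2 and 6 and -3.45, -3.12 and -6.46 in fractions 3 to 5, and was well above background in 2 of 3 fractions on each side. Its levels overlapped, and the sign of its difference turned when fraction 3 or fraction 4 was left out.

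Hypothalamic peptide genes had the higher medial mean in 12 of the 15 counted and the higher lateral mean in 3. Of 18 listed, 15 were counted, 6 of them (40%, against 5.02% of all genes) were higher in every medial fraction (Oxt, Pmch, Hcrt, Ghrh, Gal and Trh), none was lower in every one, and the median difference was 0.82, against -0.00236 over all genes counted. Oxt measured 1.22, 1.94 and -0.54 in fractions 3, 4 and 5, and -3.12, -0.60 and -1.35 in fractions 1, 2 and 6. Its highest level was in the middle slab, and fractions 5 and 2 nearly met. The medial mean was 0.88 ± 1.28 and the lateral mean -1.69 ± 1.29 (SD, n = 3 fractions each), a difference of 2.56 ± 0.84 (SE), or 5.91-fold.

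Pmch, from the lateral hypothalamus, measured 2.25, 1.30 and 2.25 in fractions 3 to 5, and -5.68, 1.01 and 0.32 in fractions 1, 2 and 6. Most of its difference of 3.38 ± 1.71 lay in fraction 1, where the probe was not well above background, so the size of the difference is not well fixed. Hcrt, which encodes orexin, an arousal peptide made by neighbouring neurons, measured 1.62, 0.60 and 1.09 in the medial fractions and -1.72, -0.54 and -0.02 in the lateral ones. Its medial mean was 1.86 ± 0.48 above the lateral mean, or 3.64-fold.

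Ghrh, the releasing hormone for growth hormone, peaked in fraction 4 at 0.04, with -0.64 and -1.46 in fractions 3 and 5 and -2.81, -2.30 and -1.50 in fractions 1, 2 and 6. The step between fraction 5 and fraction 6 was small, and the fractions overlapped when each array was centred on its median and under normexp, an alternative background correction that compresses dim signals. List medians under normexp, where given, are over the same genes unless said otherwise. Avp overlapped, because fraction 2 at 0.83 lay inside the medial range of 0.70 to 1.24 while fractions 1 and 6 measured -5.14 and -2.48. Agrp, a feeding peptide of the arcuate nucleus, also overlapped, with -0.47 in fraction 4, -1.14 in fraction 3, -2.46 in fraction 5 and -1.30 in fraction 6. Pomc and Cartpt, made by other arcuate neurons, differed by -0.23 and -0.05.

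Hypothalamic transcription factors had a median difference of 1.08 over the 9 counted of 13 (0.86 without fraction 6, 1.86 without fraction 5), with 3 higher in every medial fraction (33.3%, against 5.02%). Under normexp the median was 0.26 and all 3 (Vax1, Fezf1 and Six6) overlapped, and Six6 also overlapped with arrays centred on the median. Vax1, a ventral forebrain factor, measured -3.12, -2.99 and -3.03 in the medial fractions and -4.64, -4.00 and -3.73 in the lateral ones. Fezf1 measured -2.68, -2.83 and -3.59 against -5.34, -3.59 and -5.90, so fractions 5 and 2 differed only beyond the second decimal. Six6 was not well above background in any lateral fraction and in 2 of 3 medial ones, which gives a bound of at least 1.24-fold, with measured means of -4.72 and -6.65. Asb4, an ankyrin and SOCS box gene, was among the 10 largest of the genes well above background on all 6 arrays, at 0.84, 1.13 and -0.12 in the medial and -2.77, -0.87 and -1.11 in the lateral fractions, while its other probe differed by -0.38 and overlapped.

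**Figure D1:**
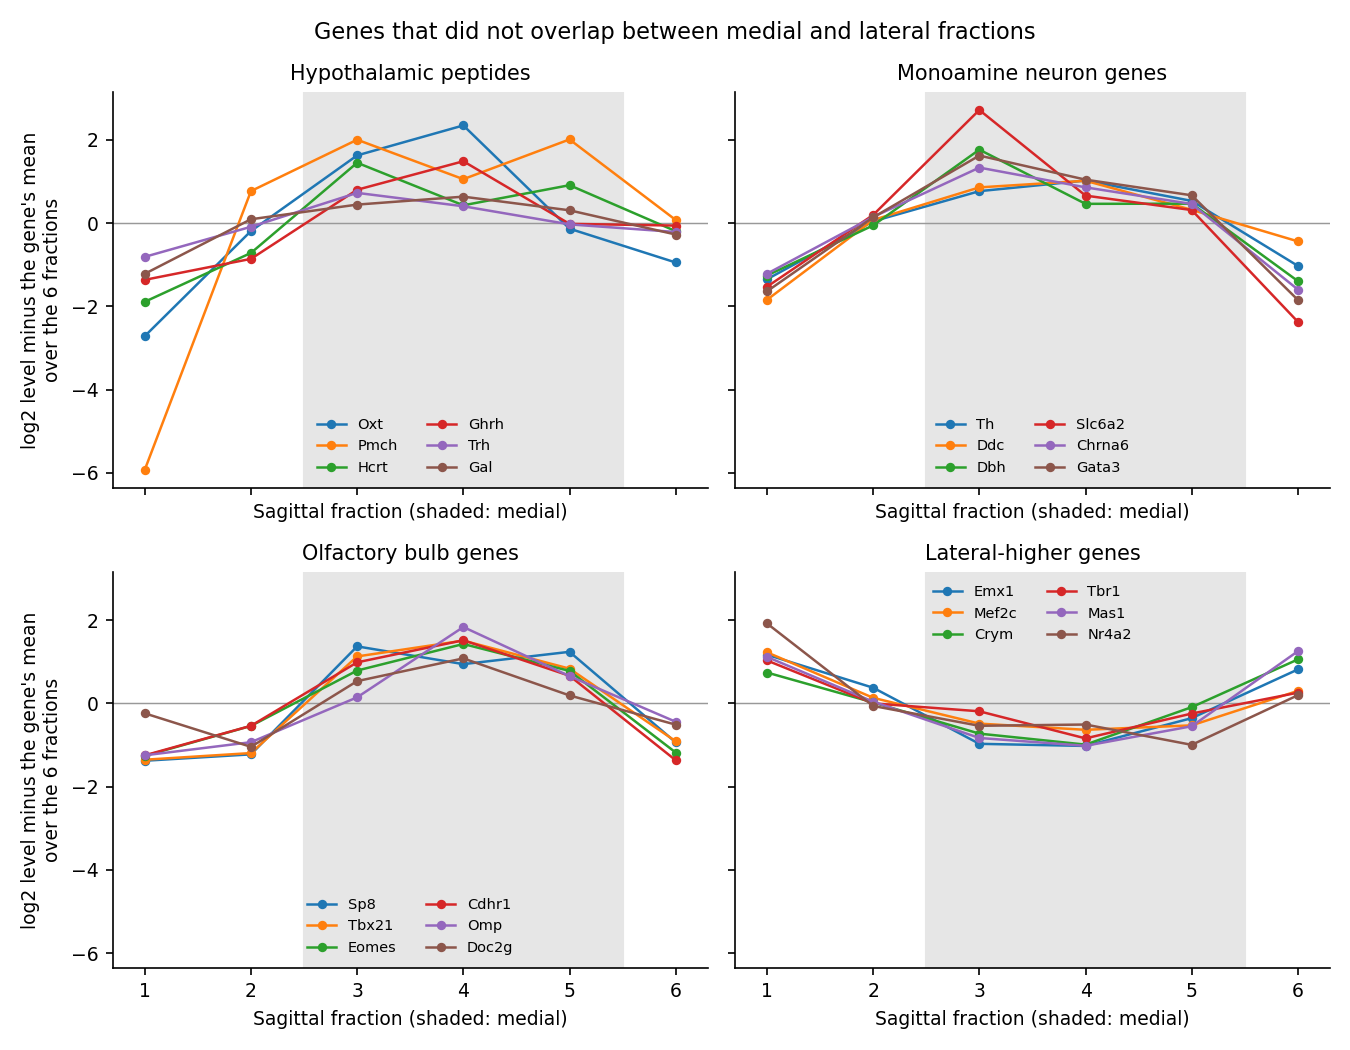
Log2 level of each gene in sagittal fractions 1 to 6 (x axis, medial fractions shaded), with the gene's own mean over the 6 fractions subtracted (y axis, log2). Each line is 1 gene and each point 1 array, with no error bar because no fraction had a replicate. Peptide, monoamine and olfactory bulb genes lay higher in the shaded fractions and the genes of the last panel lower, while Pmch was lowest in fraction 1 at -5.68 before subtraction.

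Of 12 midbrain dopaminergic genes, all counted, 6 (50%, against 5.02% of all genes) were higher in every medial fraction and 1, Nr4a2, was lower in every one. The list median was 1.38, with 0.68 under normexp, 0.87 without fraction 1 and 1.89 without fraction 2. Th, the rate-limiting enzyme of dopamine and noradrenaline synthesis, measured 2.33, 2.58 and 2.09 in the medial fractions and 0.21, 1.60 and 0.53 in the lateral ones. Its means were 2.33 ± 0.24 and 0.78 ± 0.73 (SD, n = 3 fractions each), a difference of 1.55 ± 0.38. Th is also made by olfactory bulb neurons, and in the coronal series it was highest in fraction 10.

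Foxa1 and Foxa2, forkhead factors of the ventral midbrain and floor plate, had the largest differences of the list. Foxa1 measured -1.93, -1.83 and -2.88 against -7.39, -3.00 and -5.61, again with fractions 5 and 2 close together. Foxa2 measured -2.85, -1.83 and -4.77 against -7.17, -6.89 and -6.44. It was not well above background in any lateral fraction and in 2 of 3 medial ones, which gives a bound of at least 3.67-fold. Foxa2 overlapped under normexp, and its other, dimmer probe overlapped as well. Chrna6, an acetylcholine receptor subunit of dopamine neurons, measured -0.82, -1.29 and -1.69 against -3.37, -2.005 and -3.75. The dopamine transporter Slc6a3 overlapped, since fraction 2 at 0.50 lay above fraction 4 at 0.41.

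Nr4a2 went the other way, at 0.81, 0.84 and 0.35 in the medial fractions and 3.27, 1.29 and 1.55 in the lateral ones. This nuclear receptor is made by dopamine neurons and also by deep cells of the lateral cortex and claustrum. Its difference was -1.37 ± 0.53, and its other probe gave -1.48 with no overlap.

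Of 15 serotonergic genes, 13 were counted, 4 (30.8%, against 5.02% of all genes) were higher in every medial fraction and the median difference was 0.49 (0.39 without fraction 4, 0.80 without fraction 5). Gata3, a factor of serotonin and other brainstem neurons, measured 0.13, -0.45 and -0.82 against -3.13, -1.35 and -3.33, a difference of 2.23 ± 0.56. Ddc, the enzyme that makes serotonin and dopamine from their precursors, measured 2.19, 2.35 and 1.66 against -0.51, 1.41 and 0.90. The genes most particular to serotonin neurons behaved unevenly, for Slc6a4, the serotonin transporter, differed by 2.78 but overlapped, and Fev, their defining factor, differed by 0.14.

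All 6 noradrenergic genes were counted and 3 were higher in every medial fraction, with a median of 1.78, which was 0.60 under normexp, 1.18 without fraction 6 and 2.44 without fraction 2. Dbh, which converts dopamine to noradrenaline, measured 0.83, -0.47 and -0.47 against -2.20, -0.99 and -2.33. The noradrenaline transporter Slc6a2 measured -1.23, -3.28 and -3.63 against -5.47, -3.75 and -6.32. Both were highest in fraction 3, and both were highest in coronal fraction 3 as well.

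Of 15 thalamic genes, all counted, 6 (40%, against 5.02% of all genes) were higher in every medial fraction and none lower in every one. The median was 1.11, with 0.63 under normexp, 0.71 without fraction 6 and 1.40 without fraction 2. Tcf7l2, a Wnt pathway factor of thalamic neurons, measured 0.49, 0.97 and 1.24 against -2.74, -0.04 and -0.76. One of its other probes gave a difference of 3.02 with no overlap and another -0.37 with overlap. Lhx9 measured 0.73, 0.83 and 0.58 against -2.31, -0.09 and -1.14, and both of its other probes were also higher in every medial fraction.

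Pou4f1, a factor of habenula and sensory neurons, measured -0.04, 0.11 and -1.15 against -3.54, -1.63 and -2.44. Irx2 measured 0.11, 0.07 and -0.31 against -4.09, -0.68 and -1.83, and its other probe overlapped. With Chrna3 these were the 3 genes of 11 counted septal and habenular genes that were higher in every medial fraction, while Nr4a2 and Trpc4 were lower in every one. The median of that list was 0.69, with 0.09 under normexp, 0.36 without fraction 6 and 0.39 without fraction 1.

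Of the 34 lists, the olfactory bulb list had the largest share of members without overlap, for 9 of 10 genes were higher in every medial fraction, and the list median was 1.65. Sp8, a zinc finger factor of bulb interneurons, measured 1.71, 1.28 and 1.57 in the medial fractions and -1.04, -0.89 and -0.60 in the lateral ones. The fractions of each side lay close together, with means of 1.52 ± 0.22 and -0.84 ± 0.22 (SD, n = 3 fractions each), a difference of 2.36 ± 0.20 with limma's adjusted p = 0.237. Another Sp8 probe overlapped, at -0.96 in fraction 5 and between -3.82 and -2.69 in the others.

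Tbx21 and Eomes, T-box factors of mitral and tufted cells, measured -0.90, -0.52 and -1.19 against -3.38, -3.22 and -2.94, and 0.53, 1.17 and 0.52 against -1.52, -0.80 and -1.44. Cdhr1, a cadherin of the same cells, measured 1.60, 2.13 and 1.28 against -0.63, 0.07 and -0.75. Omp, a protein of olfactory sensory neurons, reached 0.50 in fraction 4 and -2.58 in fraction 1. The exception was Slc17a7, a vesicular glutamate transporter, which was lower in every medial fraction. Of the 10 genes, 7 were highest in sagittal fraction 4 and 9 in coronal fraction 10, against 9.32% and 11.8% of all genes counted. Tfap2e, a factor of the olfactory system, was not well above background in any lateral fraction, and its medial levels give at least 2.06-fold, but it overlapped under normexp.

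**Figure D2:**
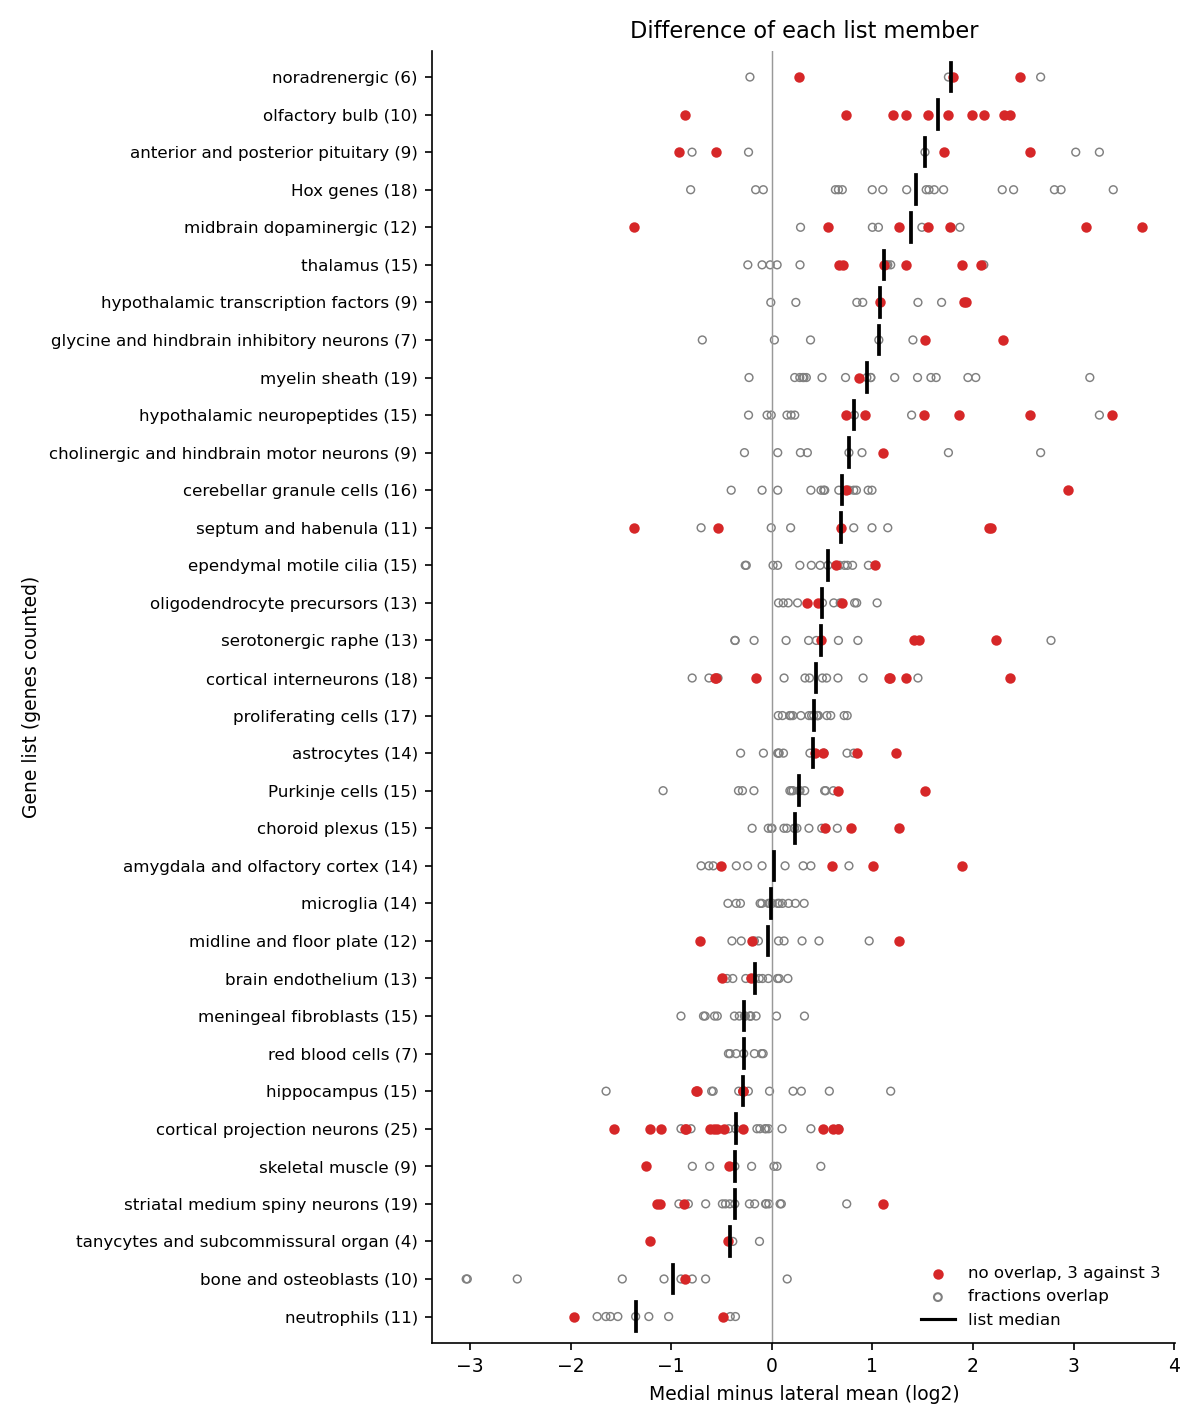
Medial minus lateral mean on the log2 scale (x axis) for every counted member of 34 gene lists (y axis, number counted in brackets). Filled points are genes whose 3 medial and 3 lateral values did not overlap, open points overlapped, and the bar is the list median. Medians ran from 1.78 for noradrenergic genes (0.60 under normexp) to -1.35 for neutrophil genes (-0.27 without fraction 6).

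Fraction 2 was lateral by position but lay close to the medial fractions over all genes. Its Pearson correlation across 15850 genes, which are not independent replicates, was 0.981, 0.986 and 0.987 with fractions 3, 4 and 5, and 0.968 and 0.963 with the lateral fractions 1 and 6. This was not particular to fraction 2. Fraction 1 correlated best with medial fraction 3 (0.979), and fraction 6 with medial fraction 5 (0.973). Fractions 1 and 3 are also the sagittal arrays whose spike-in slope was out of range, as given below. Of the 796 medial-higher genes, fraction 2 was the highest lateral fraction in 531, or 66.7%, against 34.6% of all genes counted. Leaving out any fraction raises the counts, since fewer values have to separate. The medial-higher genes numbered 2954 (19.3%) without fraction 2, 1124 without fraction 1 and 1687 without fraction 6.

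Several lists showed this. Without fraction 2, the genes higher in every medial fraction numbered 12 of 16 for cerebellar granule cells, 14 of 19 for myelin, 11 of 17 for proliferating cells and 10 of 18 for Hox genes, against the same 19.3% of all genes. Of 19 counted myelin genes, 18 had the higher medial mean, with a median of 0.94 (0.62 under normexp, 1.58 without fraction 2), but 1, Aspa, was higher in every medial fraction. In 17 fraction 2 was at or above the lowest medial value. That count does not set myelin apart, for it was 18 of 19 among striatal and 15 of 15 among meningeal genes, and its share over all genes was not computed. Mobp measured 3.93 in fraction 2 and 3.70, 3.64 and 3.73 in fractions 3 to 5, while fraction 1 was at -2.83 and fraction 6 at 0.48.

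Oligodendrocyte precursor genes had higher medial means in 13 of 13, with a smaller median of 0.50 (0.27 without fraction 6, 0.78 without fraction 2). Olig1, a lineage factor, measured 4.62, 4.50 and 4.63 against 4.10, 4.45 and 3.09, so that fraction 2 lay 0.05 or less below fraction 4 and fraction 6 stood apart. Of 18 counted Hox genes, 15 had the higher medial mean, the median was 1.44 (0.29 under normexp, 0.93 without fraction 1), and none was higher in every medial fraction, since in all 18 fraction 2 was at or above the lowest medial value. The last was also so for 15 of 15 meningeal and 11 of 11 neutrophil genes, and is not particular to Hox genes. Hoxc4 measured -0.23 in fraction 2, 0.63, 0.38 and -1.01 in fractions 3 to 5, and -6.72 and -3.24 in fractions 1 and 6.

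**Figure D3:**
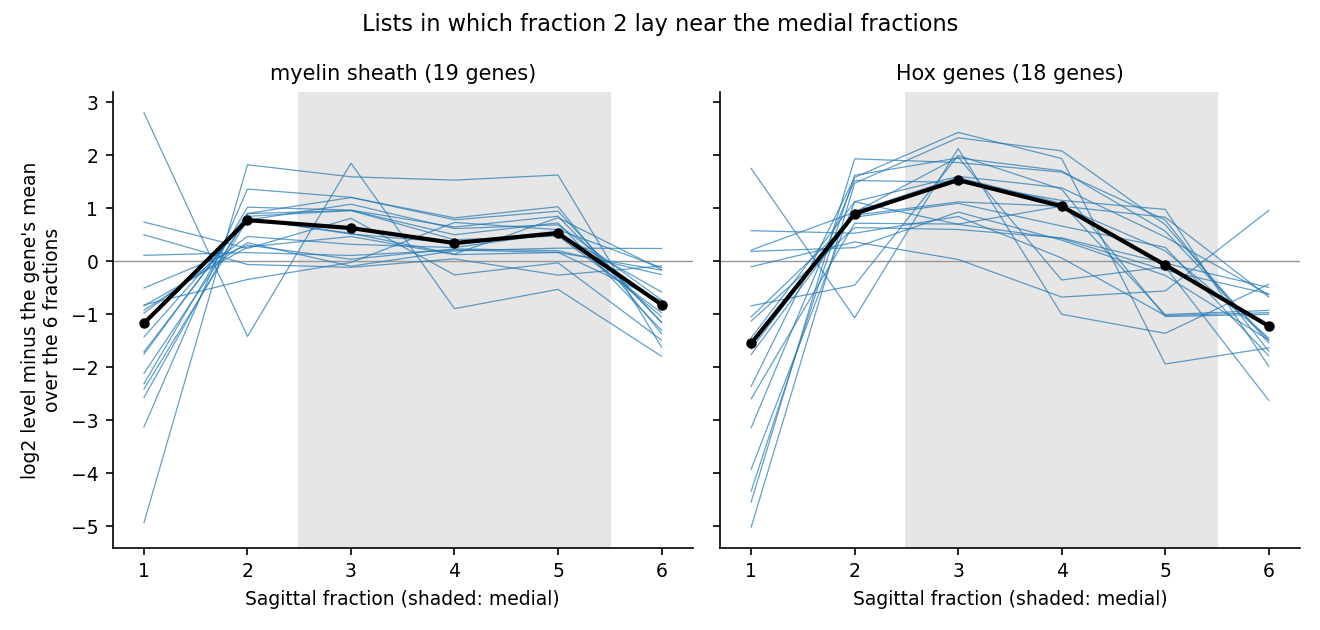
Log2 level of each counted myelin and Hox gene in sagittal fractions 1 to 6 (x axis, medial fractions shaded), minus the gene's own mean over the fractions (y axis, log2). Thin lines are genes and the thick line their median. In both lists fraction 2 lay with the medial fractions, and fractions 1 and 6 lay lower.

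Of 25 cortical projection neuron genes, all counted, 19 had the higher lateral mean, 10 (40%, against 5.15% of all genes) were lower in every medial fraction, 3 (12%, against 5.02%) were higher in every one and the median difference was -0.36. Without fraction 6 the genes lower in every medial fraction numbered 16, against 12.4% of all genes in that comparison, and the median was -0.59, and without fraction 1 the median was -0.22. Emx1 measured -1.06, -1.11 and -0.44 in the medial fractions and 1.08, 0.29 and 0.73 in the lateral ones. The groups lay clear of each other, with means of -0.87 ± 0.37 and 0.70 ± 0.40 (SD, n = 3 fractions each), a difference of -1.57 ± 0.29.

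Mef2c, a factor of cortical neuron maturation, measured -0.31, -0.46 and -0.35 against 1.41, 0.31 and 0.48. Crym, a thyroid hormone binding protein, measured 4.53, 4.26 and 5.16 against 5.99, 5.28 and 6.31. Tbr1, a deep layer factor, measured 2.81, 2.16 and 2.75 against 4.03, 3.00 and 3.25. All 3 were lowest in fraction 4. Cplx3, a complexin of deep cortical and subplate cells, measured -1.44, -3.65 and -2.04 against 0.10, -1.03 and -1.04. Of the 25 cortical genes, 6 had the higher medial mean, and the 3 higher in every medial fraction were Foxp2, Nrn1 and Rspo1.

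Of 15 counted hippocampal genes, 4 (26.7%, against 5.15% of all genes) were lower in every medial fraction and none higher, with a median of -0.29, which came out at 0.04 without scaling between arrays, where the median of all genes was at 0.32. Kcnh5, a potassium channel, measured -1.73, -1.99 and -1.62 against -0.72, -1.32 and -1.06. Spink8 overlapped, because it measured 0.27 in fraction 6 and -0.86 in fraction 1 but -2.83 in fraction 2. Mas1, the angiotensin 1-7 receptor, which is made in hippocampus and cortex, measured -1.88, -2.07 and -1.60 against 0.06, -1.01 and 0.20, and its other probe gave -1.54 with no overlap.

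Of 19 counted striatal genes, 13 were lowest in the middle slab, fraction 4, against 9.02% of all genes counted. Of the 19, 3 were lower in every medial fraction and 1, Isl1, was higher in every one, with a median of -0.37, which was -0.0035 without fraction 4, -0.14 without fraction 2 and -0.56 without fraction 6. Drd1, the dopamine receptor of direct pathway neurons, measured -2.98 in fraction 4, -1.49 and -1.39 in fractions 3 and 5, and -0.83, -0.56 and -1.03 in fractions 1, 2 and 6. The range within the medial side was larger than the difference of the means, -1.15.

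Of 15 counted genes of ependymal motile cilia, 9 were highest in the same slab, against 9.32% of all genes counted. Of the 15, 2 were higher in every medial fraction, and the median difference was 0.56, which was 0.20 without fraction 4. Foxj1, the master factor of motile cilia, measured 0.72 in fraction 4, 0.10 and -0.32 in fractions 3 and 5, and -0.60, -0.63 and -1.36 in the lateral fractions. Tmem212, a ciliated cell gene, measured 0.90 in fraction 4 and between -1.34 and -0.44 elsewhere.

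**Figure D4:**
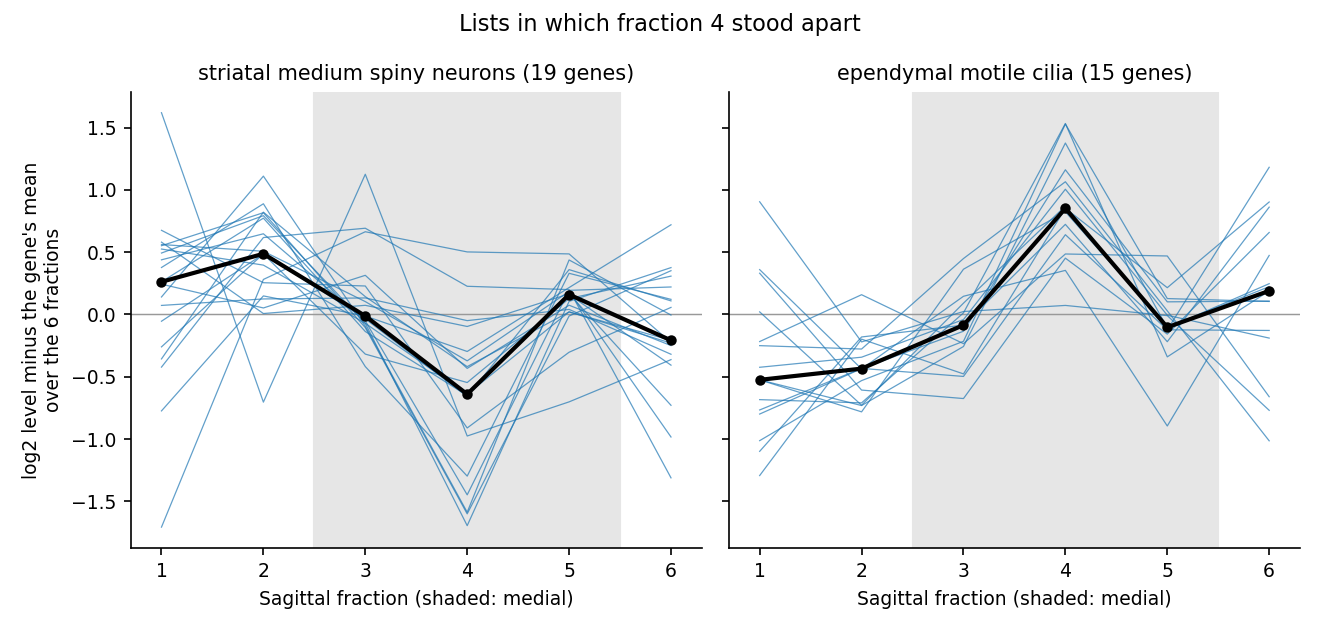
Log2 level of each counted striatal and ependymal cilia gene in sagittal fractions 1 to 6 (x axis, medial fractions shaded), minus the gene's own mean over the fractions (y axis, log2). Thin lines are genes and the thick line their median. The striatal median was lowest and the cilia median highest in fraction 4.

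Other genes named for large differences were of mixed kinds. On the medial side these included Tfap2b, a factor of inhibitory neurons, at 1.24, 1.19 and 1.11 against -2.25, 0.24 and -1.34, and Tmem125, a gene of oligodendrocytes, at 0.31, 0.13 and 0.30 against -4.43, -0.08 and -1.91. Foxd3, Cst12 and Adam4 were not well above background in any lateral fraction, with bounds of at least 1.99-fold, 1.502-fold and 1.81-fold. All 3 overlapped under normexp. Among genes well above background on all 6 arrays, the largest lateral excess was that of Gm11559, a predicted gene, at -0.42, -1.12 and -1.04 in the medial fractions and -0.19, 2.73 and 3.88 in the lateral ones.

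Plb1, a phospholipase, measured -2.64, -2.81 and -1.91 against 0.05, -1.10 and 0.90. The other probes of Gm11559 and Plb1 were not well above background in any sagittal fraction. Tcap, Trpa1, Nnmt and Tmco5 were lower in every medial fraction, with differences of -1.87, -1.74, -1.49 and -1.51, and another Tmco5 probe overlapped. Mycs, Syna, Mmp13, Adamts13 and Cysltr2 were not well above background in any medial fraction, with bounds of at least 3.74-fold, 2.76-fold, 2.68-fold, 1.27-fold and 1.27-fold. Adamts13 and Cysltr2 overlapped under normexp and under quantile normalization. Mycs and Syna were well above background in fractions 1 and 2 alone, at -0.75 and -2.04 and at -2.08 and -1.50.

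Markers of tissue around the brain differed between the outer fractions. Of 10 counted bone genes, 9 had the higher lateral mean, with a median of -0.99 (-2.22 without fraction 1, when 7 of 9 were lower in every medial fraction, against 9.89% of all genes), but 1, Runx2, was lower in every medial fraction. Of the 10, 5 were highest in fraction 2 and 5 in fraction 6, against 16.6% and 34.6% of all genes counted, while fraction 1 lay low. Ibsp, bone sialoprotein, measured 1.61 in fraction 2 and 1.69 in fraction 6, and between -4.36 and -2.59 in the others. The summed level of the bone list, on the log2 scale, was 4.75 and 5.08 in fractions 2 and 6 and between 2.73 and 3.16 in the rest. Mmp13, a bone and cartilage collagenase, followed the same fractions at -1.29 and -2.68.

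Neutrophil genes were highest in fraction 6 in 9 of 11, against 34.6% of all genes counted. The list median was -1.35, and -0.27 without fraction 6 and -0.79 under normexp, and S100a8, a granule protein, measured 1.90 there and between -4.51 and -2.21 elsewhere. Their summed level ran from 1.13 to 1.96 in the medial fractions and from 1.89 to 4.36 in the lateral ones. Of 9 counted muscle genes, Myh3 and Acta1 were lower in every medial fraction and the median was -0.37 (-0.53 without fraction 2, -0.23 without fraction 6). Skeletal muscle summed levels ran from 1.67 to 1.81 in the medial and from 1.68 to 2.63 in the lateral fractions. Without fractions 1 and 3, 7 of 9 counted bone genes and 7 of 11 neutrophil genes were lower in every medial fraction, against 14.5% of all genes in that comparison. The part of these tissues in the lateral-higher genes was not tested.

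Among interneuron genes, 4 of 18 were higher in every medial fraction, led after Sp8 and Calb2 by Dlx2 and Dlx1, factors of inhibitory precursors that were highest in coronal fraction 10, and Dlx6, Npy and Sst were lower in every one (median 0.44, with 0.21 under normexp, 0.15 without fraction 6 and 0.71 without fraction 2). Glycinergic and hindbrain inhibitory genes had 2 of 7 higher in every medial fraction (median 1.06, and under normexp 0.05 over the same genes and 0.58 over the 6 then counted, 0.65 without fraction 6 and 1.91 without fraction 2), and cholinergic and motor genes 1 of 9 (median 0.77, with 0.42 under normexp and 1.45 without fraction 2). Cerebellar granule cell genes had 2 of 16 (median 0.70, and 0.42 without fraction 6), of which Gabra6, a receptor subunit of these cells, measured -1.85, -0.53 and -2.15 against -6.96, -3.11 and -3.30. Purkinje cell genes had 2 of 15 (median 0.27, with 0.06 without fraction 1, 0.42 without fraction 2 and 0.05 without fractions 1 and 3).

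Astrocyte genes had 4 of 14 (28.6%, against 5.02%) higher in every medial fraction and none lower (median 0.40, and 0.21 without fraction 1), among them the GABA transporter Slc6a11 at 1.84, 1.69 and 1.52 against 0.50, 1.47 and -0.62. Choroid plexus genes had 3 of 15 (median 0.23, with 0.13 under normexp, 0.08 without fraction 1 and 0.45 without fraction 6). Midline and floor plate genes had 1 higher and 2 lower of 12 (median -0.03, which was 0.29 without scaling and 0.13 without fraction 6), the lower ones being Slit1 and Slit3, secreted axon repellents. Amygdala genes had 3 higher and 1 lower of 14 (median 0.02, which was -0.05 with arrays centred on the median, -0.00991 under quantile normalization, -0.08 without fraction 3 and 0.26 without fraction 1).

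Pituitary genes had 2 each way of 9 (median 1.52), Oxt being among the higher, but the median was -0.13 without fractions 1 and 3, 0.20 under normexp and 0.40 without fraction 1. Tanycyte genes had 2 of 4 lower, Crym and Dio2 (median -0.41, with -0.66 without fraction 3 and -0.24 without fraction 1). Proliferation genes had higher medial means in 17 of 17 (median 0.42, with 0.18 without fraction 1 and 0.67 without fraction 2) but no gene without overlap, with 11 of 17 when fraction 2 was left out, against 19.3% of all genes in that comparison, and none was found among red blood cell (median -0.28), meningeal (median -0.27) or microglial genes (median -0.00758). Endothelial genes had 2 of 13 (15.4%, against 5.15%) lower (median -0.17). Without scaling the red blood cell, meningeal, microglial and endothelial medians were 0.04, 0.05, 0.32 and 0.16, and the microglial median was also above 0 under quantile normalization and normexp. The microglial median ran from -0.08 to 0.19 with 1 fraction left out. Without fraction 6 the red blood cell, meningeal and endothelial medians were 0.07, -0.00733 and 0.05, and 2 of 13 endothelial genes were then higher and 2 lower in every medial fraction (15.4% each, against 10.7% and 12.4% of all genes). Without fraction 1 these medians were -0.60, -0.52 and -0.24. Then 1 of 7, 3 of 15 and 3 of 13 genes were lower in every medial fraction, against 9.89% of all genes.

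The genes were then looked up in the brains cut along the other axes. Those brains did not enter the overlap rule, but they did enter the choice of 1 probe per gene. Of the medial-higher genes, 83.8% of 790 were highest in horizontal fractions 4 to 6, against 59.7% of all genes counted, and 1.52% were highest in horizontal fraction 1, against 19%. Of the lateral-higher genes, 42.6% of 801 were highest in horizontal fraction 1. Along the coronal series, 19.7% of the medial-higher genes were highest in fraction 10, against 11.8% of all genes, and 47.5% of 796 lateral-higher genes were highest in fractions 7 to 9, against 20.4%. Each series is 1 other brain of 1 mouse, and these shares are descriptions with no test. The spike-in slope was out of range on horizontal fractions 1, 2 and 3 (0.891, 0.818 and 0.891) and coronal fractions 1 and 2 (0.867 and 0.815) and in range on the others, so array quality and position along the horizontal series cannot be told apart.

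**Figure D5:**
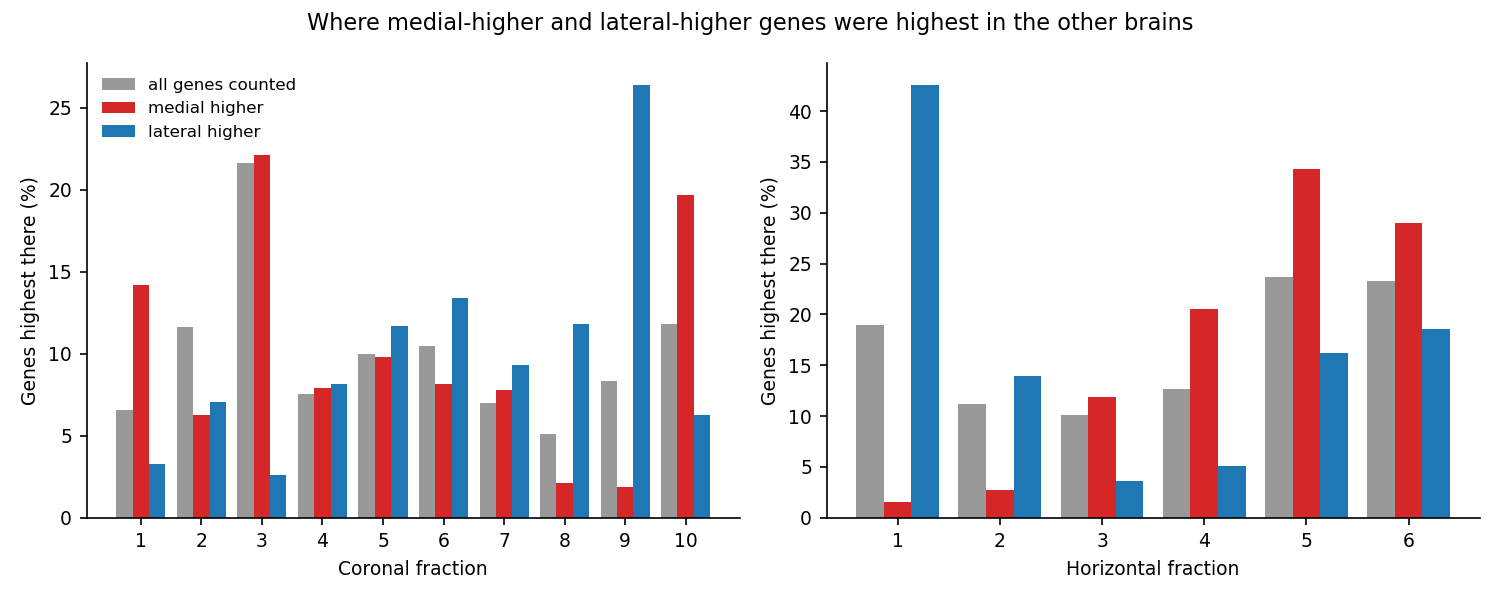
Share of genes, in percent (y axis from 0), that were highest in each coronal fraction (left) and horizontal fraction (right), for all genes counted, the medial-higher genes and the lateral-higher genes. Lateral-higher genes were most often highest in horizontal fraction 1 (42.6%) and coronal fraction 9 (26.4%), and medial-higher genes in horizontal fraction 5 (34.3%).

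The 6 sagittal arrays shared 1 slide, and their 75th percentile of signal ran from 260 to 604. On 2 of them, fraction 1 and fraction 3, 1 on each side, the slope of the spike-in controls was outside the range set by the software, at 0.773 and 0.823. Ermn, a myelin gene, measured 6.09 and 5.13 there and between 1.49 and 2.75 elsewhere, and 303 genes (1.91%) were higher in both than in the other 4 fractions by 1 log2 unit or more. Since 1 array lies on each side, such a gene cannot separate the sides. Without both arrays, the hypothalamic peptides had a median of 0.63, the olfactory bulb genes 1.67, the dopaminergic genes 0.61, the Hox genes 0.68, and the cortical genes -0.22. The part of the spike-in shift in these results was not tested.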

How the data were processed

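Total RNA of 22 brain fractions was labelled with Cy3 and hybridised to 1-colour Agilent mouse arrays designed on mm9. Per the file headers, the authors extracted spots with Agilent Feature Extraction 10.10.1.1, giving a background-subtracted processed intensity per spot. The authors' deposited log2 table matched log2 of this intensity minus the array's 75th percentile within 0.02 for 99.9% of values.

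Control and outlier spots were left out and the spots of a probe averaged, leaving 55600 probes. Of 28087 RefSeq probes, 26553 matched a current symbol, and 1 probe per gene was kept, that with the highest median over the 22 arrays. Medial and lateral fractions were compared by counting genes without overlap and with limma 3.58.1 (R 4.3.3, lmFit and eBayes, Benjamini-Hochberg). Named genes were the given markers, the 10 largest differences without overlap in each direction among genes well above background on all 6 arrays, the 5 largest not well above background on the lower side, and up to 4 non-overlapping members of each of 34 lists with any that went the other way. Further list members in the text were chosen after their values were seen. Members, rule and lists were chosen with earlier results of these data known. A bound ("at least") sets the mean of the bright side against, for each dim array, the higher of its lowest signal well above background and the probe's own value. On simulated data of 15942 genes, limma recovered 6 of 100 genes changed by 1 log2 unit and 69 of 100 changed by 2, with 1 false call. The simulated noise was normal and independent between arrays, with limma's own variances, and the changed genes were drawn at random. The slabs of 1 brain do not vary in that way, so these counts do not give the power in the real data.

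Promoter sequences came from RefSeq on GRCm38.p6, another build than the array's. For the normexp alternative, median spot signals stood in for mean signals, which the files used here do not hold. The number of arrays limits the precision. Some genes of the lists are not reported here by name.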

Additional observations from a re-analysis of the deposited data

How the results depend on the processing

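Counts of medial-higher and lateral-higher genes without overlap stayed within 1.5 times of 796 and 816 under median centring (642 and 1088), quantile normalization (785 and 865), normexp (681 and 781), the deposited table (805 and 809), detection on all 6 arrays (708 and 692), no filter (840 and 1041) and another probe choice (791 and 818). The genes themselves were less stable than the counts. Of the 796 and the 816, 74.5% and 91.2% were kept under median centring, 77.1% and 77% under quantile normalization, and 62.2% and 65.6% under normexp. Without scaling, which put the median of all genes at 0.32, the lateral-higher count was 142 and the medial-higher 776. Of these, 90 were among the 816 (11%) and 207 among the 796 (26%). Without the 2 arrays out of range the counts were 1936 and 2206, and fewer fractions separate by construction more often. Leaving out 1 fraction gave 990 (without fraction 4) to 2954 (without fraction 2) medial-higher genes and 998 (without fraction 4) to 1955 (without fraction 6) lateral-higher genes. Of the genes without overlap, none had the opposite direction without overlap under median centring, quantile normalization, no scaling or normexp, while leaving out fractions cannot turn a separated gene. Limma called 0 genes under every alternative but one: without fraction 6, 1 lateral-higher gene passed, Syna (-4.88, adjusted p = 0.0427), so leaving out a fraction gave 0 to 1. Of 98 named genes without overlap, 95 kept it under median centring, 92 under quantile normalization, 70 under normexp and 45 without scaling. The sign of a named difference turned for Tph2 without both arrays out of range (-0.20), without fraction 3 (-0.00218) and without fraction 4 (-0.17), and without scaling for Slit1 (0.13), Neurod6 (0.0339), Wfs1 (0.0364) and Pecam1 (0.12). The causes were not tested. No paired analysis was possible because the 6 fractions are single pieces of 1 brain, with no replicates to match.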

Other observations

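Probes for long noncoding RNA intervals, named on the array by position and strand, were counted by the same rule. Of 7080 counted among 16150 probes, 421 were lower in every medial fraction (5.95%) and 116 higher in every one (1.64%), with a median difference of -0.24. With each array centred on the median of the RefSeq genes counted, the shares were 7.12% and 1.31%. The RefSeq genes were split 5.15% lower and 5.02% higher under the first scaling, and 6.86% lower and 4.05% higher under the second. Of the promoters in the RefSeq table, the windows of 624 medial-higher genes held TATAAA in 8.59% and those of 630 lateral-higher genes in 11.2%, against 8.1% over all genes counted. AGGTCA was held by 11.5% and 11.8%, against 11.7%.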
